A study of Mus musculus with 44 samples.

Results

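The nucleolar and rRNA processing factors were followed in single mouse embryos at the two-cell stage. They were chosen by name, as all genes of the deposited table called Nop, Nol or Utp with a number, Npm1 to Npm3, or Ncl, Fbl, Dkc1, Nhp2, Gar1, Bop1, Pes1, Wdr12, Wdr43, Ubtf, Rrn3 and Nolc1, without pseudogene names. This gave 43 of 35269 genes. All 43 are protein coding in the GENCODE annotation of GRCm38, with the coordinates that the deposited table gives. The embryos were 44 in number and came from 6 litters of natural matings on a C57Bl/6 background, 2 litters from each of 3 crosses, and each embryo was sequenced as a library of its own. Control females with Dppa2/4+/+ males gave 14 Dppa2/4+/+ embryos (WT, 10 in litter 1 and 4 in litter 2). Females that had lost Dppa2 and Dppa4 in growing oocytes through Zp3-Cre, and so supplied none of either from the mother, were mated with Dppa2/4+/+ males and gave 15 Dppa2/4+/- embryos (HET1, 7 and 8), or with Dppa2/4+/- males and gave 5 Dppa2/4+/- embryos (HET2, 4 and 1) and 10 Dppa2/4-/- embryos (HOM, 3 and 7). The control females carried no maternal deletion. HET2 and HOM shared their litters, and their genotypes had been assigned by the authors from the Dppa2 and Dppa4 transcripts of these same libraries. WT, HET1 and the cKO-x-HET cross shared no litter, and a difference between them cannot be told apart from one between litters. Separate embryos of a litter share parents and collection, and p-values over embryos measure the spread between embryos.

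Ribosomes are built in the nucleolus, where RNA polymerase I copies the rRNA genes and where the long precursor is modified, cut and packed with ribosomal proteins. Box C/D and box H/ACA particles, each a small RNA with a few proteins, methylate the precursor or convert its uridines to pseudouridine, the small subunit processome forms on its leading part, and other factors shape the large subunit. In the mouse zygote the nuclei hold dense nucleolus precursor bodies rather than working nucleoli, and rRNA synthesis starts again around the two-cell stage, when the embryo switches from stored maternal transcripts to its own.

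For 32 of the 43 genes a promoter of 300 bases, from 250 bases before to 50 bases after a transcription start, was found in the RefSeq sequences of GRCm38.p6, and the start nearest to the deposited 5′ end was used. Nol6, Utp11, Nop53, Fbl, Nol3, Npm1, Utp6, Npm2, Utp23, Bop1 and Nol4 had no entry. The letters CACGTG, the E-box bound by Myc and related factors and the same on both strands, occurred in 9 of the 32 promoters (28.1%), against 7.15% of all 32851 promoters in the same table. The letters CCGGAAGT, an ETS factor motif searched on both strands, occurred in 7 (21.9%), against 3.89% of all promoters. The core of the NRF1 motif, a palindrome and thus the same on both strands, occurred in 0 of the 32 promoters and in 0.971% of all promoters. The motifs were chosen as common promoter motifs, and a match describes the letters and not a bound site. Start sites used in embryos may differ from those annotated, and promoters of the same gene in the table count separately in the share of all promoters. Shown here are promoters of genes that fell between the HET1 litters, described further on. They are those whose start lay within 50 bases of the deposited 5′ end and that held CACGTG, followed by Nop9, the gene with the largest fall among those with such a start and no CACGTG. They are written 5′ to 3′ on the strand of the gene, and capitals mark CACGTG and CCGGAAGT, the latter also in its reverse complement.
Nop2, chr6:125131633-125131932, forward strand: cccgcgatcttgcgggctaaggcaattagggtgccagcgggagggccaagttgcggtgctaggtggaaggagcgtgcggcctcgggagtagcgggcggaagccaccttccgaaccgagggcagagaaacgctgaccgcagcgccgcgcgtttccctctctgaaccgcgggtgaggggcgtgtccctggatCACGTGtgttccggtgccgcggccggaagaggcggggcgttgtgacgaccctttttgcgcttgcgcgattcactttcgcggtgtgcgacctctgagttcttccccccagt
Utp4, chr8:106893390-106893689, forward strand: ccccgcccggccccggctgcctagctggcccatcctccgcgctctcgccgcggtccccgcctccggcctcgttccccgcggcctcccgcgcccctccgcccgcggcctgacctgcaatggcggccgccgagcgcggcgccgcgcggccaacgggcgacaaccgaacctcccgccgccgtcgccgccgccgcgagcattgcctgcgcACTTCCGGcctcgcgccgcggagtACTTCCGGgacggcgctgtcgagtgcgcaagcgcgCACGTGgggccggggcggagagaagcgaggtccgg
Nol11, chr11:107189332-107189631, reverse strand: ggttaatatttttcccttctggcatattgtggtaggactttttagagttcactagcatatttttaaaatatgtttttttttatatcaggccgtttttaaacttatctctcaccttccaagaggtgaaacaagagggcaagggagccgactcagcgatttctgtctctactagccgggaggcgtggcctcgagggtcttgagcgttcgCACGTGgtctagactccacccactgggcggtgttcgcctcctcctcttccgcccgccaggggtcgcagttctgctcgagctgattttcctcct
Rrn3, chr16:13780449-13780748, forward strand: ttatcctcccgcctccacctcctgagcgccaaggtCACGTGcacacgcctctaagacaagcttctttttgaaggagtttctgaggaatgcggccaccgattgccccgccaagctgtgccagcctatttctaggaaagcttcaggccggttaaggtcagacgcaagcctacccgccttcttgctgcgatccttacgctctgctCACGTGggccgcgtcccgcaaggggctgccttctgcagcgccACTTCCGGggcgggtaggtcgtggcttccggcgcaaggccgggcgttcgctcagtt
Nop9, chr14:55745443-55745742, forward strand: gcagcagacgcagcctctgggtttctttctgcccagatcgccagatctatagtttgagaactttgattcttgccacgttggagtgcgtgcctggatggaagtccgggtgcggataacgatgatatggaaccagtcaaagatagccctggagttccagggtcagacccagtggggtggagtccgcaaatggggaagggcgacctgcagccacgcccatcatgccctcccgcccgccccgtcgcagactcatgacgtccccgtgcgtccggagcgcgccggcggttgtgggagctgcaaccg
Nop2 encodes an rRNA methyltransferase of the large subunit, Utp4 and Nol11 belong to the part of the small subunit processome that also assists rDNA transcription, Rrn3 brings RNA polymerase I to the rRNA genes, and Nop9 binds precursor rRNA of the small subunit. CACGTG did not set apart the genes that fell between the HET1 litters from the others. It was present in 5 of 16 promoters of genes that fell and in 4 of 16 promoters of the other genes, and CCGGAAGT was present in 5 of 16 and 2 of 16.

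Expression is given as log2 RPM, the logarithm of the reads of a gene scaled to the total reads of its embryo. Total reads ran from 247667 to 3163026 per embryo, with lower totals in HET1 (247667 to 1830316) than in WT (637704 to 3163026). A gene without reads had been given the value of 0.9 read, so the lowest possible value depends on depth, and about 3 reads are needed to tell a gene from 0. For tests all values were therefore raised to a common floor of 1.86, the zero-read value of the shallowest embryo, and 13338 genes above it in at least 5 embryos were tested with limma, with Benjamini-Hochberg adjustment over all of them. This left 41 of the 43 genes, since Nol3 had reads in 8 embryos and Nol4 in 1. The limit of 3 reads covers counting error only, and the SD and SE given are over embryos. Differences are on the floored log2 scale and understate those of low genes, whereas levels of embryos are given as deposited. Dppa2 had 184 to 2144 reads in WT, 11 to 489 in HET1, 19 to 814 in HET2 and 0 to 7 in HOM. Of 10 markers of cumulus cells, which surround the egg, Fshr had no read in any embryo, Has2 had reads in 2 embryos, Ptx3 in 1, Foxl2 in 2, Inha in 3 and Cyp11a1 in 4. Amhr2 was read in 43 embryos, Runx2 in 24, Cyp19a1 in 16 and Tnfaip6 in 10, and the summed level of the 10 markers ran from 11.7 to 100.2 RPM in WT, 8.46 to 73.2 in HET1, 5.41 to 37.2 in HET2 and 10.2 to 115.7 in HOM. Of 12 two-cell and oocyte markers all had reads in each group.

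Nearly all of the factors were expressed. In all 44 embryos 36 of the 43 genes had at least 1 read. Per base of exon, Npm1 stood first in WT, at a median of 359 RPKM over 14 embryos (243 to 740 RPKM). It encodes nucleophosmin, a histone and ribosome chaperone and a main protein of the nucleolus. Nhp2 and Dkc1 followed at medians of 102 RPKM (51.4 to 244) and 87.4 RPKM (53.1 to 176). Both belong to the box H/ACA particle, in which Dkc1 is the pseudouridine synthase and Nhp2 a core protein. Rrn3 stood next at 82.2 RPKM (19.6 to 110.0), so that the ranges of Nhp2, Dkc1 and Rrn3 over WT embryos overlapped. Of the tested genes the lowest were Nol12 at 2.11 RPKM (0.43 to 7.24), Wdr12 at 3.73 RPKM (1.88 to 5.88) and Utp20 at 3.93 RPKM (0.46 to 5.27), with overlapping ranges. Wdr12 is a partner of Pes1 and Bop1 in the PeBoW complex, which is needed to mature the large subunit rRNA, and Utp20 is a large scaffold protein of both precursor subunits. Exon lengths cover every annotated transcript, and Npm1 has near-identical processed copies, so that levels per length are approximate.

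Embryos of a litter differed more for some genes than for others. Within litters the SD on the log2 scale was smallest for Ncl (0.33), Utp14b (0.41) and Npm1 (0.42) and largest for Nol6 (1.24), Nop53 (1.19) and Nop2 (1.18). Mean levels were 8.02, 7.30 and 9.50 log2 RPM for Ncl, Utp14b and Npm1, and 3.82, 4.53 and 6.09 for Nol6, Nop53 and Nop2. Counting error enters the SD of genes with few reads, and its part was not separated. Ncl encodes nucleolin, an RNA-binding chaperone of the nucleolus, and Nol6 encodes a protein of the small subunit processome.

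The 43 genes together took up between 0.280% and 0.793% of the reads of an embryo. By group the summed share was 0.583% ± 0.112 in WT (SD, n = 14), 0.459% ± 0.115 in HET1 (n = 15), 0.426% ± 0.088 in HET2 (n = 5) and 0.583% ± 0.168 in HOM (n = 10). These means hid larger differences between litters. In HET1 the share ran from 0.515% to 0.616% in litter 1 and from 0.280% to 0.482% in litter 2, with no overlap. In the cKO-x-HET cross the HOM embryos stood at 0.412%, 0.388% and 0.414% in litter 1 and between 0.435% and 0.793% in litter 2, again with no overlap. The HET2 embryos of these litters stood at 0.375%, 0.390%, 0.350% and 0.443% in litter 1 and 0.571% in litter 2, beside the HOM embryos of their own litter. The sum is weighted to abundant genes, such as Npm1, Dkc1 and Nop58, with 2197, 1002 and 779 reads in the HET2 embryo of litter 2. The WT litters overlapped, at 0.489% to 0.739% in litter 1 and 0.380%, 0.461%, 0.482% and 0.586% in litter 2. Litter numbers carry no common order across crosses.

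**Figure D1:**
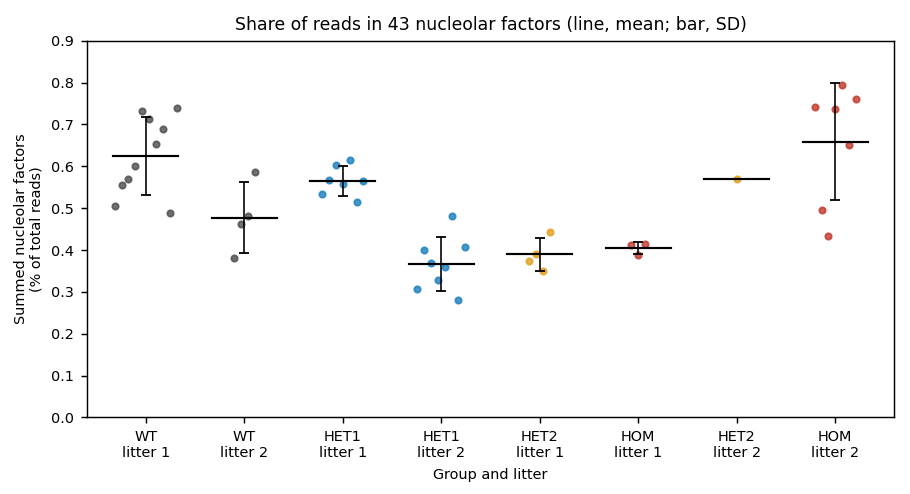
Share of total reads in the 43 nucleolar factors (y axis, per cent) in each embryo (points), by group and litter (x axis), with the mean (line) and SD (bar). The litters of HET1 and of HOM do not overlap, whereas HET2 and HOM of the same litter lie side by side in this sum.

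Counted gene by gene, the litters of HET1 and HOM stood in the same order as by summed share. In HET1 litter 2 between 22 and 37 of the 41 tested genes lay under their median WT level in an embryo (median 33.5 genes), against 15 to 24 genes (median 18.0) in HET1 litter 1. In HOM the count was 24, 26 and 35 in the embryos of litter 1 and 8 to 32 (median 10.0) in litter 2. The HET2 embryo of litter 2 did not follow, with 29 genes under the median WT level, within the 24 to 39 genes of HET2 litter 1. In WT, where the median sets the count near the middle, it was 8 to 31 in litter 1 and 16 to 33 in litter 2.

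**Figure D2:**
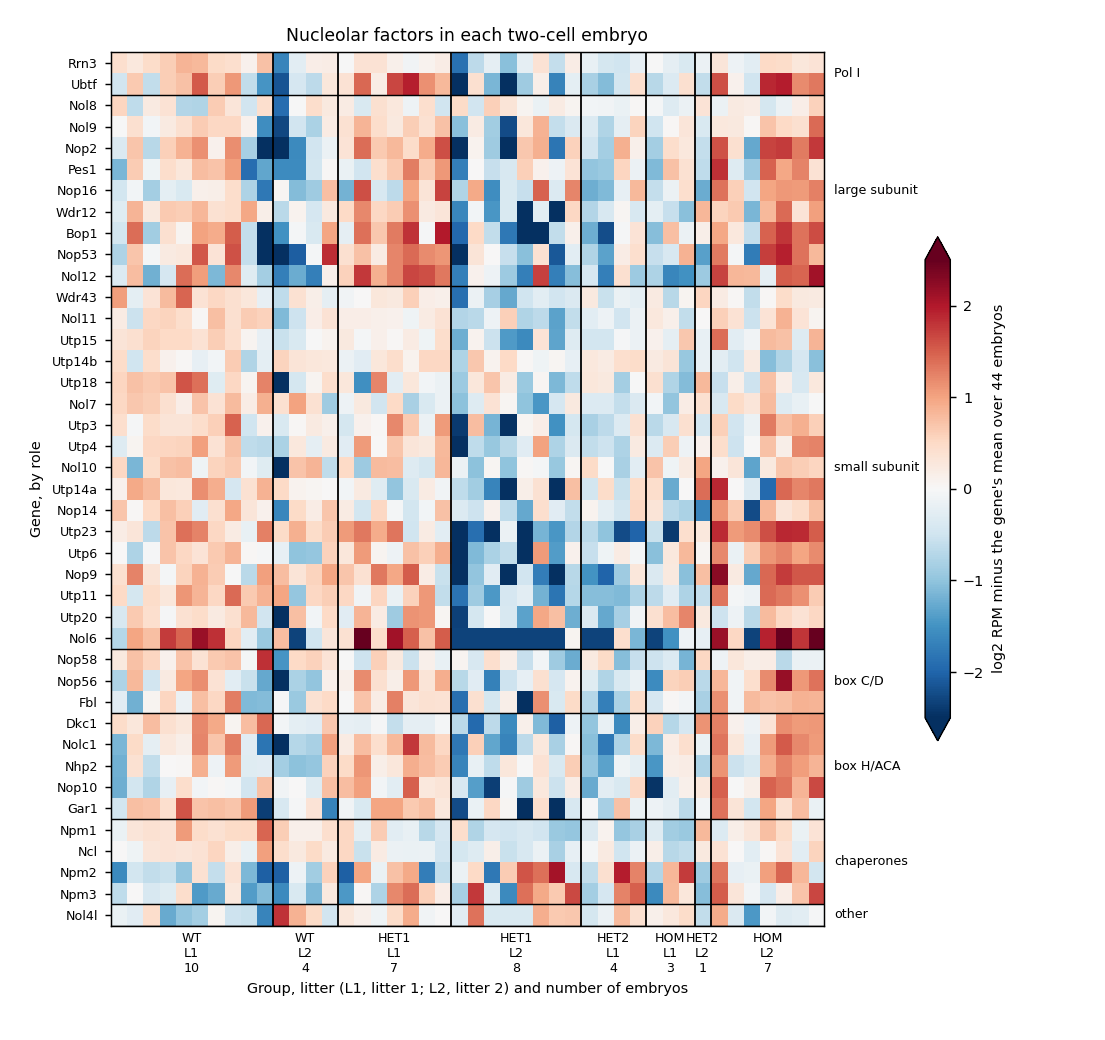
Level of the 41 tested genes (rows, grouped by role) in each of the 44 embryos (columns, grouped by litter), as log2 RPM raised to the common floor minus the mean of the gene over all embryos. Most rows are low (blue) in HET1 litter 2 and high (red) in HOM litter 2, whereas Npm2 and Npm3 vary between embryos of HET1 litter 2 and are not low there on average.

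HET1 embryos lack the maternal supply and also carry 1 functional copy of Dppa2/4 in place of 2, and both differences from WT enter their comparison. Dppa2 stood at 6.47 ± 1.02 log2 RPM in HET1 (SD, n = 15) and 8.46 ± 0.55 in WT (n = 14). Dkc1, Npm1, Nol7, Ncl and Utp11 were lower in HET1, and 0 genes of the 41 were higher. With litter as a random effect none of the 5 passed (adjusted p between 0.38 for Dkc1 and 0.61 for Utp11), nor did any other of the 13338 genes. The 5 genes are 12.2% of those tested, against a background of 6.51% of all 13338 genes past the threshold in either direction and 2.83% lower. The median difference over the 41 genes was -0.35, against 0.10 over all genes. Without HET1 litter 2 the median over the 41 genes was 0.29, and without WT litter 1 it was -0.0045. Dkc1 levels ran from 7.78 to 9.50 log2 RPM in WT (median 8.49) and from 6.03 to 8.18 in HET1 (median 7.84). The difference was -1.12 ± 0.25 (SE), a level 2.17-fold lower, with an adjusted p of 0.00466. Npm1 ran from 9.34 to 10.95 in WT (median 9.90) and from 8.54 to 10.14 in HET1 (median 9.08). It was lower by a log2 difference of -0.77 ± 0.19 (adjusted p 0.00981). Of the 15 HET1 embryos 12 lay under the lowest WT embryo in Npm1 and 7 in Dkc1, and the ranges overlapped in all 5 genes.

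Ncl showed the smallest difference of the 5, at 7.83 to 9.05 log2 RPM in WT (median 8.33) and 7.21 to 8.54 in HET1 (median 7.82). The difference was -0.52 ± 0.16 (adjusted p 0.0337). Nol7, a nucleolar protein placed with the small subunit factors, ran from 5.73 to 7.62 in WT (median 7.07) and from 5.16 to 7.12 in HET1 (median 6.29). Its difference was -0.76 ± 0.21 (adjusted p 0.0195). Utp11, a subunit of the small subunit processome, ran from 4.12 to 6.50 in WT (median 5.66) and from 3.25 to 6.18 in HET1 (median 4.67), with a difference of -0.97 ± 0.30 (adjusted p 0.0394). Part of the exon sequence of Nol7 (16.4%) is shared with the neighbouring gene Ranbp9, and reads were counted without strand.

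By role, 2 of 4 genes of the nucleoplasmin and nucleolin group, 1 of 5 box H/ACA genes and 2 of 17 small subunit genes were lower in HET1, and 0 of 9 large subunit genes, 0 of 3 box C/D genes and 0 of 2 RNA polymerase I factors. Npm2, the nucleoplasmin of the egg that remodels sperm chromatin, and its relative Npm3 had positive differences of 0.82 ± 0.41 (adjusted p 0.23) and 0.94 ± 0.39 (adjusted p 0.14), which did not pass. The number of calls changed with the litters used. Without HET1 litter 2, 0 of the 41 genes passed (5 of all 13338 genes), and the differences of the 5 genes lay between -0.26 (Utp11) and -0.70 (Dkc1). Without WT litter 1, 0 passed (136 of all genes), with differences between -0.55 (Nol7) and -0.74 (Utp11). Without HET1 litter 1 the number was 18, in a fit that called 19.2% of all genes. With litter as a random effect, where none passed, the 5 differences were close to those above, at -1.03 (Dkc1), -0.91 (Utp11), -0.74 (Npm1), -0.72 (Nol7) and -0.53 (Ncl). When every embryo was re-centred on its median gene, 12 genes passed, all lower, in a fit that called 7.90% of all genes. The share of all called genes that were higher went from 56.5% to 35.0%.

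The absence of Dppa2/4 from both mother and embryo was addressed by comparing HOM with WT, and 0 of the 41 genes passed (background 0.045% of all genes). At an unadjusted p under 0.05 there were 9 genes, 6 higher and 3 lower, against 16.5% of all genes, and voom, the limma method for read counts, called 0. The largest of these differences was that of Npm2, at -0.45 to 4.49 log2 RPM in WT (median 3.31) and 3.17 to 5.66 in HOM (median 4.74), a difference of 1.26 ± 0.46 (adjusted p 0.16). Npm1 had a difference of -0.53 ± 0.21 (adjusted p 0.20). Nop58 and Nop56, the paired scaffold proteins of the box C/D particle, had differences of opposite sign. Nop58 stood at -0.66 ± 0.24 (adjusted p 0.16) and Nop56 at 1.03 ± 0.37 (adjusted p 0.16). Fibrillarin (Fbl), the methyltransferase of this particle, ran from 3.82 to 6.29 in WT and from 4.60 to 6.16 in HOM. Without WT litter 1, 1 gene passed, in a fit that called 132 of all 13338 genes.

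HET2 against WT gave 0 of 41 genes past the threshold (background 0.0375%). At an unadjusted p under 0.05 there were 5 genes, all with lower values in HET2, against 9.01% of all genes, and voom called 0. Utp11 stood at 4.03, 4.02, 3.98, 4.32 and 4.50 log2 RPM in the 5 HET2 embryos, a difference from WT of -1.45 ± 0.43 (adjusted p 0.31). Npm1 stood at 9.14, 9.58, 8.52 and 8.68 in litter 1 and at 10.31 in litter 2, a difference of -0.71 ± 0.27 (adjusted p 0.43). The embryo of litter 2 was the highest of the 5. Dkc1, Nol7 and Utp23 were the other genes. With weights for single embryos 1 gene passed, in a fit that called 92 of all 13338 genes.

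**Figure D3:**
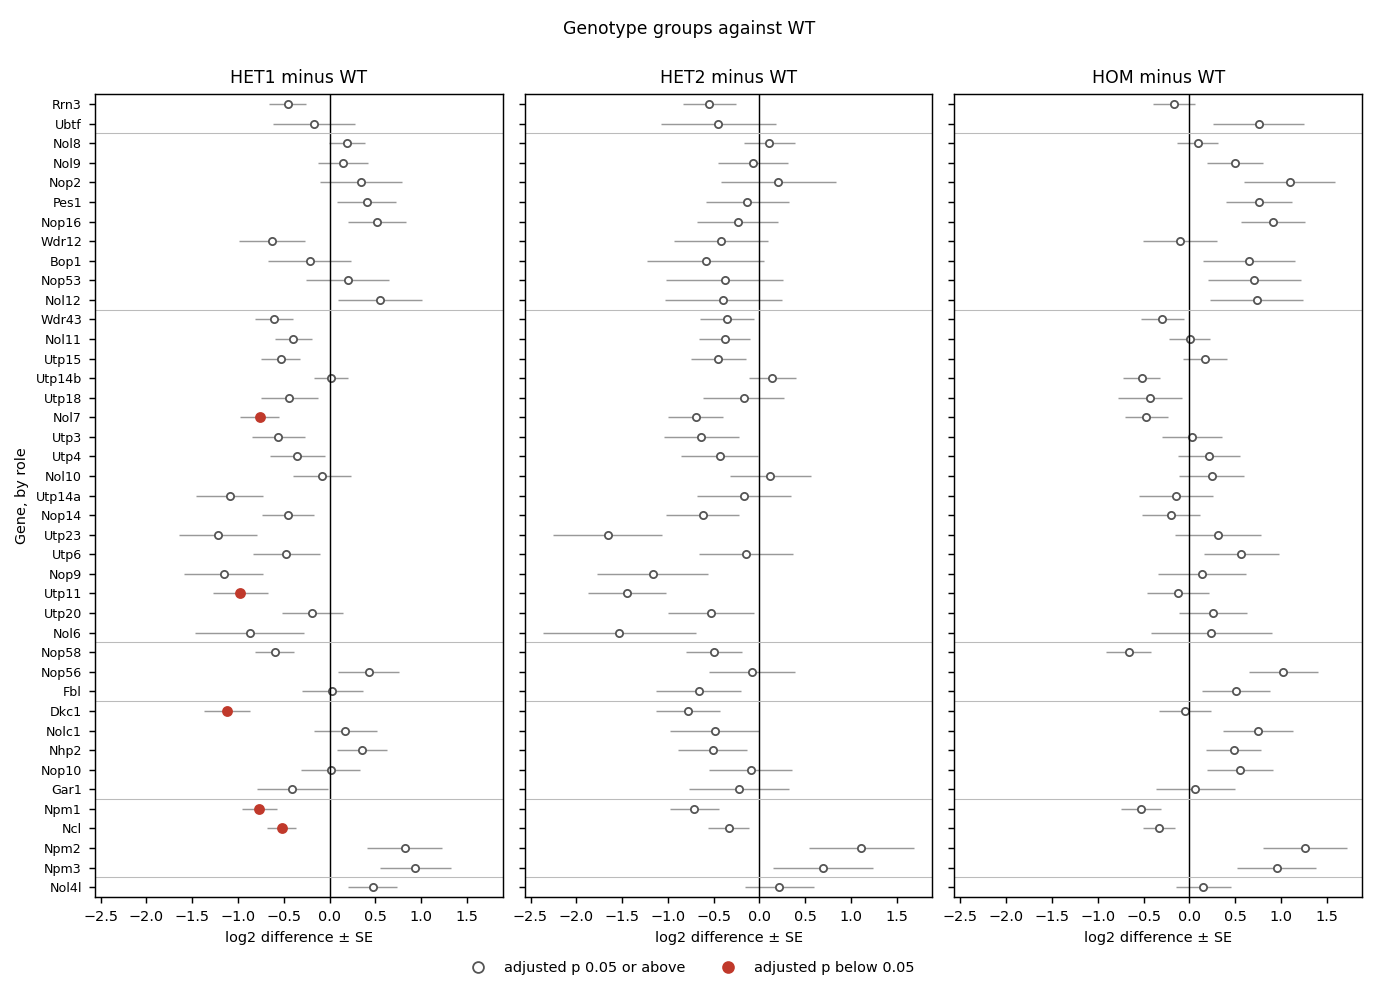
Log2 difference from WT (x axis, with SE) of the 41 tested genes (y axis, by role) in HET1, HET2 and HOM, all against the same WT embryos. Filled points passed the adjusted threshold, which only 5 genes in HET1 did, all of them lower.

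HOM and HET2 embryos of the same litters differ by label in the paternal allele, since neither received Dppa2/4 from the mother. With litter in the model 0 of 41 genes passed (background 0.015%), voom called 0, and 2 genes had an unadjusted p under 0.05, against 4.81% of all genes. These were Fbl, with a difference of 0.87 ± 0.38, and Utp20, with 0.91 ± 0.40 (adjusted p 0.85 for both). Fbl ran from 4.60 to 6.16 log2 RPM in HOM and from 3.31 to 5.47 in HET2, so the groups overlapped. Differences over the 41 genes lay between -0.54 and 0.93, and with 5 HET2 embryos, only 1 of them from litter 2, smaller effects could not be resolved.

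The litters of HET1 have the same parental genotypes, and of the 7 comparisons the one between them gave the most calls. In litter 2, 22 of the 41 genes (53.7%) were lower and 0 higher, against a background of 21.9% of all genes past the threshold and 15.4% lower. The median difference over the 41 genes was -0.88, against -0.18 over all genes tested and -0.38 over those with a mean of at least 3 log2 RPM. Re-centring embryos moved the balance of all called genes from 29.5% to 58.7% higher, and 13 of the 41 genes then passed, all lower, with a median difference of -0.53. The 21.9% and 15.4% are from the fit without re-centring and are no background for these 13 genes. Of the 22 genes, 12 passed in each of 11 alternatives, which were Bop1, Nol6, Nol12, Nolc1, Nop2, Nop9, Ubtf, Utp3, Utp6, Utp11, Utp23 and Wdr12.

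Both RNA polymerase I factors fell. Ubtf, the upstream binding factor that keeps rRNA genes open (chr11:102304560-102319742, reverse strand, GRCm38), ran from 6.27 to 8.02 log2 RPM in litter 1 (median 7.22) and from 1.03 to 6.46 in litter 2 (median 5.06). Of the 8 embryos of litter 2, 7 lay under the lowest of litter 1. The difference was -2.46 ± 0.50, a level 5.49-fold lower (adjusted p 3.45e-04). Rrn3, the initiation factor whose promoter with CACGTG in 2 places is printed above, ran from 7.97 to 8.41 in litter 1 (median 8.19) and from 6.18 to 8.41 in litter 2 (median 7.64). Its difference was small, at -0.65 ± 0.25 (adjusted p 0.0482), and did not pass when embryos were re-centred.

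Of the 17 small subunit genes 10 fell, which were Nol6, Nop9, Utp23, Utp6, Utp11, Utp3, Utp4, Wdr43, Utp15 and Nol11. Nol6 (chr4:41114427-41124455, reverse strand) showed the largest difference of all 41 genes. In litter 1 it ran from 4.55 to 6.81 log2 RPM (median 5.67), whereas the 8 embryos of litter 2 held 5, 2, 0, 0, 0, 1, 0 and 10 reads, and each was lower than every embryo of litter 1. The difference on the floored scale was -3.35 ± 0.62 (adjusted p 9.82e-05), with 4 of 8 embryos of litter 2 without a read. Wdr43, a subunit that acts with Utp4 in rDNA transcription and early processing, was the other gene without overlap. It ran from 7.91 to 8.61 in litter 1 (median 8.18) and from 6.13 to 7.86 in litter 2 (median 7.52), a difference of -0.91 ± 0.25 (adjusted p 0.00621). Ranges failed to overlap for 2 of 41 genes, both lower in litter 2, against 2.49% of all genes tested.

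Utp23, which in yeast helps to release the snR30 guide RNA during small subunit assembly (chr15:51877429-51884614, forward strand), ran from 5.06 to 6.90 in litter 1 (median 6.47) and from 1.86 to 5.40 in litter 2 (median 3.89). It was lower by a difference of -2.38 ± 0.42 (adjusted p 4.18e-05). Nop9 ran from 4.76 to 6.82 in litter 1 (median 6.00) and from 1.08 to 5.04 in litter 2 (median 3.95), a difference of -2.45 ± 0.48 (adjusted p 1.78e-04). In Nop9, 29.9% of the exon sequence overlaps Cideb on the opposite strand, whose reads could not be told apart. The other 6 small subunit genes differed by between -0.69 (Nol11) and -1.74 (Utp6). Nol7 and Utp14b, which did not pass, had differences of -0.27 ± 0.28 and -0.17 ± 0.24.

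Of the 9 large subunit genes 6 fell. Bop1 and Wdr12, which form the PeBoW complex with Pes1, were among them. Bop1 ran from 4.65 to 6.85 in litter 1 (median 6.17) and from 1.58 to 5.37 in litter 2 (median 3.67), a difference of -2.26 ± 0.55 (adjusted p 0.00214). Wdr12 ran from 5.40 to 6.37 in litter 1 (median 5.69) and from 1.94 to 5.68 in litter 2 (median 4.25), a difference of -1.86 ± 0.41 (adjusted p 9.21e-04). Pes1, the third protein of the complex, had a difference of -0.71 ± 0.43 that did not pass (adjusted p 0.24). The other falls were those of Nol12 (-1.97), Nop2 (-1.74), Nop53 (-1.66) and Nol9 (-0.99). In the embryos of litter 2 Nol12 held 0, 9, 20, 3, 0, 13, 0 and 3 reads and Nop53 held 1, 22, 46, 8, 3, 11, 3 and 11. Among the genes that fell, the lowest embryo of litter 2 held 1 read of Bop1, Wdr12, Nop9 and Utp6 and 0 of Gar1 and Utp23. Differences that rest on such embryos are approximate. Nol8, the most abundant of the group by mean read level, had a difference of 0.10 ± 0.27 (adjusted p 0.84).

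Of the 5 box H/ACA genes 4 fell, which were Nolc1 (-1.41 ± 0.42, adjusted p 0.0122), Gar1 (-1.34 ± 0.50, adjusted p 0.0454), Nop10 (-1.14 ± 0.38, adjusted p 0.0240) and Dkc1 (-0.78 ± 0.29, adjusted p 0.0468). Gar1, Nop10 and Nhp2 are the small core proteins around Dkc1, and Nolc1 is the carrier that links these particles to the nucleolus and Cajal bodies. Nhp2 had a difference of -0.82 ± 0.34 (adjusted p 0.0739). In the box C/D particle 0 of 3 genes passed. Nop56 ran from 6.74 to 7.79 in litter 1 (median 7.01), with 4.91 as the lowest and 6.25 as the median of litter 2 (difference -1.02 ± 0.40, adjusted p 0.0619), Fbl had a difference of -0.90 ± 0.44 (adjusted p 0.14) and Nop58 of -0.28 ± 0.28 (adjusted p 0.52).

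Of the nucleoplasmins and nucleolin 0 of 4 genes passed. Npm1 ran from 8.81 to 10.14 in litter 1 (median 9.26) and from 8.54 to 9.93 in litter 2 (median 9.02), a difference of -0.41 ± 0.23 (adjusted p 0.20). Ncl ran from 7.46 to 8.54 and from 7.21 to 8.17, a difference of -0.23 ± 0.21 (adjusted p 0.47). Npm2 and Npm3 had positive differences, of 0.75 ± 0.56 (adjusted p 0.36) and 0.29 ± 0.53 (adjusted p 0.75). Nol4l, which was placed in no step of ribosome assembly, had a difference of 0.04 ± 0.34.

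**Figure D4:**
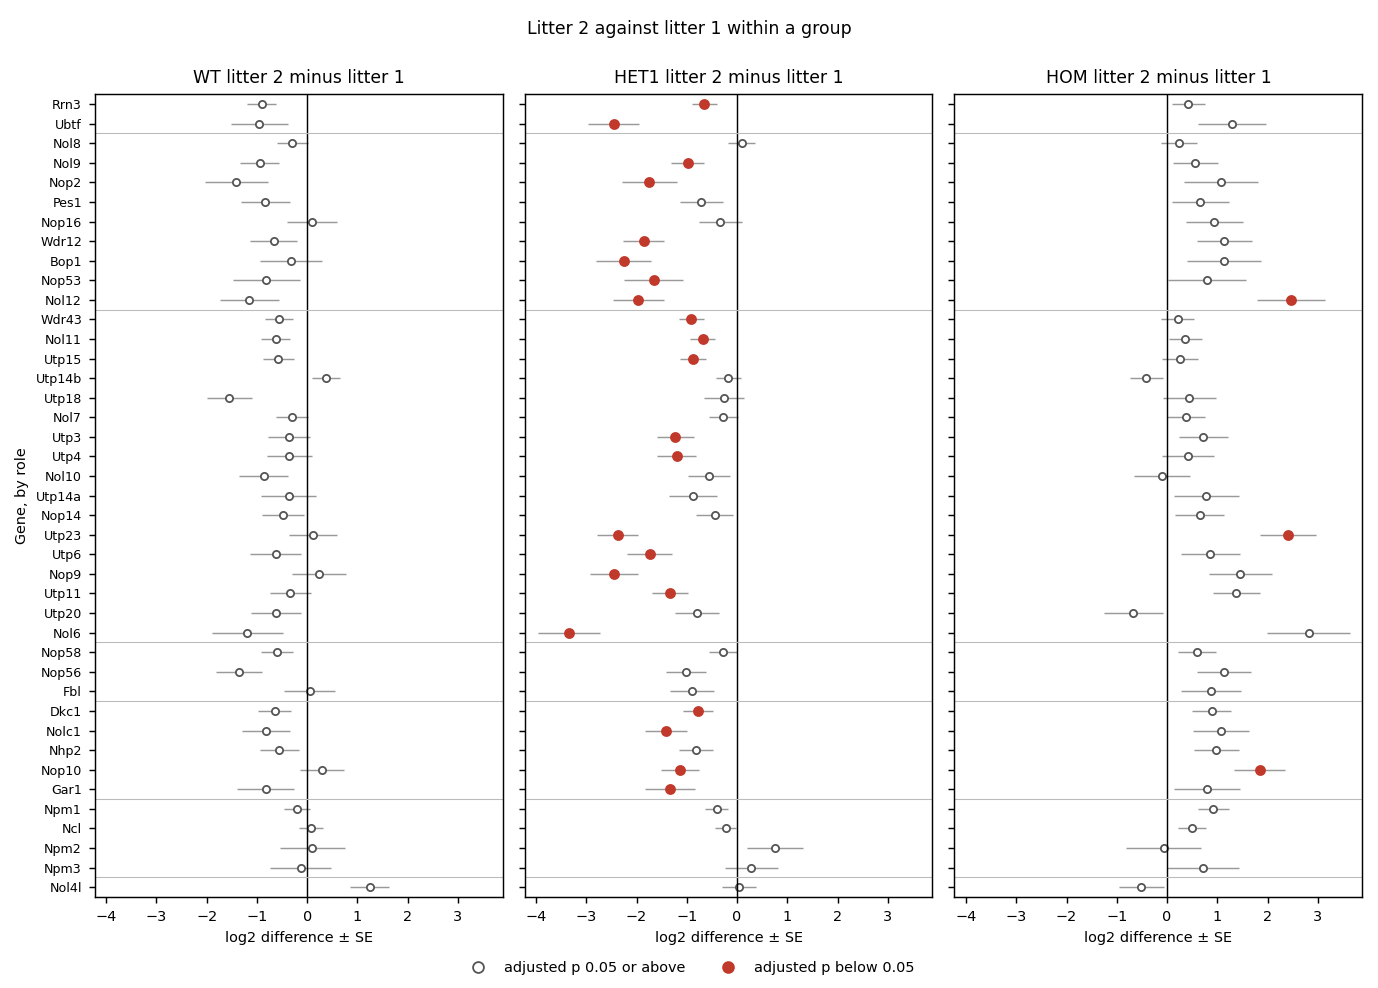
Log2 difference between litter 2 and litter 1 (x axis, with SE) for the 41 tested genes (y axis, by role) in WT, HET1 and HOM. Filled points passed the adjusted threshold, 22 genes lower in HET1 and 3 genes higher in HOM.

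In HOM it was the embryos of litter 2 that had the higher levels. Utp23, Nol12 and Nop10 were higher in litter 2 and 0 genes were lower, 3 of 41 (7.32%) against a background of 2.32% of all genes and 1.15% higher. The median difference was 0.78, against 0.05 over all genes. Re-centring gave 4 genes, all higher, a median of 0.58, and a share of higher genes among all called that went from 49.5% to 33.6%. The 2.32% and 1.15% are from the fit without re-centring and are no background for these 4 genes. Utp23 stood at 5.00, 3.16 and 5.98 log2 RPM in the embryos of litter 1 and from 6.61 to 7.44 in the 7 embryos of litter 2, each above every embryo of litter 1. The difference was 2.42 ± 0.56 (adjusted p 0.0185). Nol12, an RNA-binding protein needed to cut the large subunit precursor, stood at 2.80, 1.93 and 2.05 in litter 1. Nol12 ran from 3.35 to 5.68 in litter 2 (difference 2.47 ± 0.68, adjusted p 0.0402). The embryos of litter 1 held 17, 3 and 5 reads of Nol12, and those of litter 2 held 5 to 64. The lowest is at the limit of about 3 reads, and the difference is approximate. Of 14 alternatives Utp23 passed in 13, Nop10 in 7 and Nol12 in 4. Ranges failed to overlap for 3 of 41 genes, all higher in litter 2, against 3.4% of all genes tested.

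Nop10 stood at 3.62, 5.81 and 6.19 in litter 1 and from 6.05 to 7.71 in litter 2 (difference 1.85 ± 0.51, adjusted p 0.0397). Nol6 had the largest difference, 2.82 ± 0.83, and did not pass (adjusted p 0.0514). The count depended on 3 embryos of litter 1, since without each of them in turn it was 1, 0 and 2, and voom called 1. With the HET2 embryos of the same litters included and genotype in the model, 2 genes were higher in litter 2, against a background of 5.15% of all genes and 2.17% higher. These were Utp23 (2.23 ± 0.42, adjusted p 0.00954) and Npm1 (1.04 ± 0.23, adjusted p 0.0201), and the median over the 41 genes was 0.57. Of the 22 genes lower in HET1 litter 2, 1 (4.55%) was among these 2 genes (50.0%), and this was Utp23.

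Between the WT litters 0 of 41 genes passed (background 1.75% of all genes). The median difference over the 41 genes was -0.56, with 32 of them negative. Over all genes it was -0.04, and over those with a mean of at least 3 log2 RPM -0.14. At an unadjusted p under 0.05 there were 7 genes, 6 with lower and 1 with higher values in litter 2, against 14.7% of all genes. Voom called 3 of the 41, against 674 of 13338 genes. Utp18, a small subunit processome protein, stood at 3.23, 6.22, 6.72 and 7.08 in litter 2 and from 6.36 to 8.23 in litter 1 (difference -1.55 ± 0.45, adjusted p 0.0584). Rrn3 stood at 6.40, 7.79, 8.22 and 8.23 in litter 2 and from 8.16 to 8.89 in litter 1 (difference -0.91 ± 0.28, adjusted p 0.0811). The same embryo was lowest in both genes. It had a read in 9169 genes, the fewest of the 44 embryos, at 1065975 total reads. Without single embryos of litter 2 in turn the number of genes passed was between 0 and 4.

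**Figure D5:**
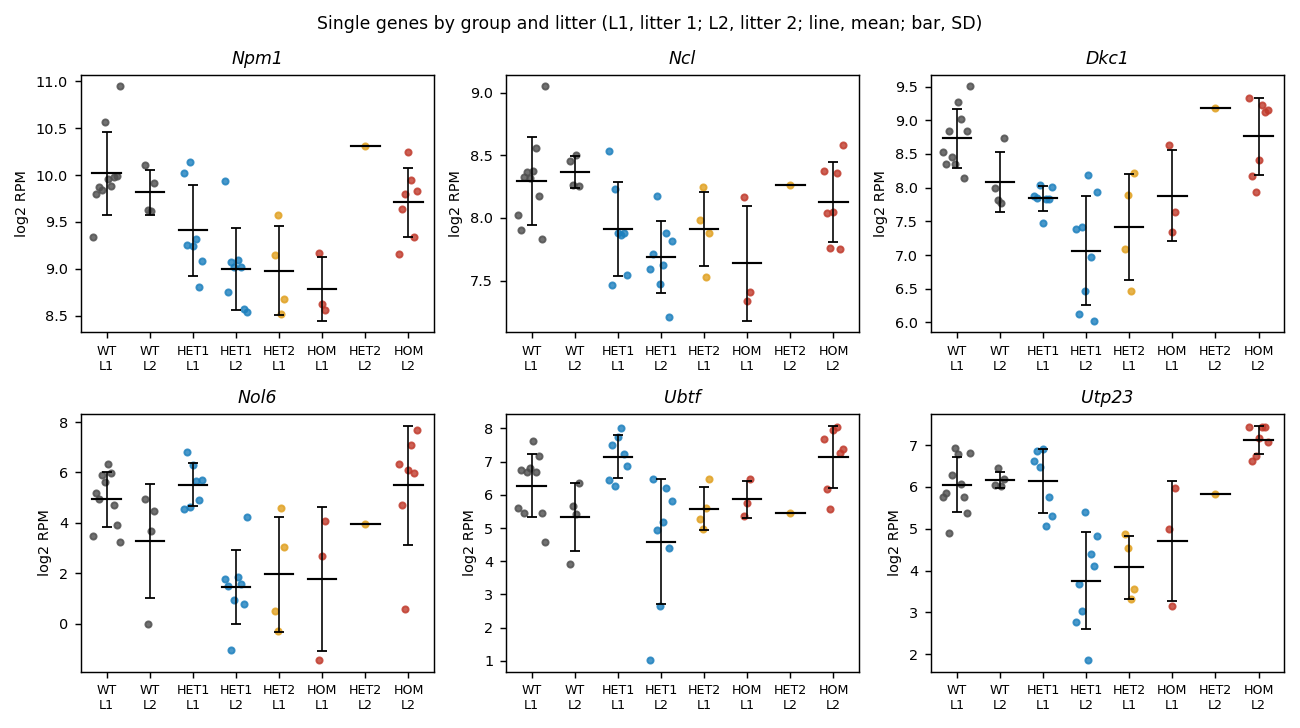
Level of Npm1, Ncl, Dkc1, Nol6, Ubtf and Utp23 as deposited (y axis, log2 RPM, a separate scale for each gene) in each embryo (points), by group and litter (x axis), with the mean (line) and SD (bar). Npm1 and Ncl are higher in WT than in most HET1 embryos, whereas Nol6 is lower in every embryo of HET1 litter 2 than in litter 1, and Ubtf and Utp23 are lower there in 7 of 8 embryos than in any of litter 1.

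Other genes of ribosome assembly were taken from 4 lists of 101 genes, all tested. Between the HET1 litters 56 were lower and 2 higher in litter 2, where 15.4% of all genes tested were lower and 21.9% differed in either direction. Other large subunit factors made up 23 of 42 (Wdr74 -3.71 ± 0.51 and Sdad1 -2.95 ± 0.47), other small subunit factors 20 of 30 (Emg1 -2.68 ± 0.45 and Rrp36 -2.26 ± 0.49) and subunits and partners of RNA polymerase I 7 of 13 (Taf1c -3.40 ± 0.61 and Cd3eap -2.07 ± 0.53). In litter 2 the means of Wdr74, Sdad1, Rrp36 and Taf1c were 2.44, 2.27, 1.83 and 2.09 log2 RPM, near the floor of 1.86. Those of Emg1 and Cd3eap were 3.73 and 3.41. Of 16 exosome genes, whose products trim rRNA, 6 were lower and 2 higher. Mphosph6, an exosome partner in 5.8S rRNA maturation, was higher in litter 2, at 10.47 ± 0.69 log2 RPM (SD, n = 8) against 8.22 ± 0.65 (n = 7), a difference of 2.24 ± 0.29 (adjusted p 3.02e-07). Between HET1 and WT 14 of the 101 genes were lower and 1 higher, where 2.83% of all genes were lower and 6.51% differed in either direction. With litter as a random effect 0 of all genes passed, and without HET1 litter 2 the number was 5 of all 13338 genes. Among the 15 genes were Rpf1 (-1.42 ± 0.33) and Wdr75 (-1.48 ± 0.30) lower and Mphosph6 (1.18 ± 0.33) higher. Between the HOM litters 4 were higher and 0 lower, where 1.15% of all genes were higher and 2.32% differed in either direction. Among the 4 were Wdr74 (2.75 ± 0.69) and Exosc7 (3.06 ± 0.76). In the other 4 comparisons 0 of the 101 genes passed.

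Other measures moved with the litters. The summed level of 12 two-cell and oocyte markers, most of it from Omt2b and Dppa3, ran from 2790 to 7386 RPM in HET1 litter 1 (median 4541) and from 8378 to 16730 RPM in litter 2 (median 10715). In HOM it ran from 7811 to 8948 RPM in litter 1 and from 3545 to 5409 RPM in litter 2. The litters with less of the nucleolar factors thus had more of these markers, the ranges did not overlap in either group, and the part of these markers in the result was not tested. In HET2 the sum was 6786 to 10378 RPM in litter 1 and 2689 RPM in litter 2, and in WT 2821 to 5551 RPM and 1852 to 8136 RPM. The summed level of the 10 cumulus markers ran from 33.1 to 73.2 RPM in HET1 litter 1 (median 44.5) and from 8.46 to 58.7 RPM in litter 2 (median 18.8), and from 19.3 to 38.2 RPM in HOM litter 1 (median 28.3) and from 10.2 to 115.7 RPM in litter 2 (median 75.3). In WT it ran from 11.7 to 79.1 RPM in litter 1 (median 37.3) and from 25.1 to 100.2 RPM in litter 2 (median 49.8), and in HET2 from 5.41 to 37.2 RPM in litter 1, with 22.6 RPM in litter 2. The cumulus sums thus overlapped between litters in every group, and their part in the result was not tested. Amhr2 had the highest mean of the 10 markers in each group, at 4.80 log2 RPM in WT against 0.95 for Runx2, the next. A change in the sum is thus largely one in Amhr2. Depth overlapped between the HET1 litters, at 360380 to 1417242 total reads in litter 1 and 247667 to 1830316 in litter 2. With depth as a covariate 22 of the 41 genes passed between the HET1 litters. The 21.9% of all genes given for these litters is from the fit without this covariate and is no background for that count. Between HET1 and WT 0 of the 41 and 0 of all 13338 genes passed in that fit, with differences of -1.21 (Utp11), -1.18 (Dkc1), -0.65 (Npm1), -0.59 (Nol7) and -0.41 (Ncl). The exact age of the embryos within the two-cell stage is not given in the labels, and its part in these differences was not tested. In whole embryos a lower share of reads cannot be told apart from a higher amount of other RNA.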

How the data were processed

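Single-embryo RNA-seq of 44 two-cell embryos was analysed, with group and litter taken from the labels. The authors trimmed reads (Trim Galore 0.6.5, cutadapt 2.3), mapped them to GRCm38 with HISAT2 2.1.0, kept a MAPQ of at least 20 and quantified genes in SeqMonk without strand. The deposited values are log2 RPM per total reads of an embryo. The reads behind each value were recovered from the zero-read value (99.9992% of non-zero values came out whole, with a tolerance of 0.05 read). The MAPQ filter drops reads shared by near-identical copies, such as those of Npm1.

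Values were raised to a common floor of 1.86 log2 RPM (3.63 RPM), because unequal depth otherwise shifts genes without reads. For genes above it in at least 5 embryos, limma 3.58.1 under R 4.3.3 was used (lmFit, then eBayes with trend), with p-values adjusted by Benjamini-Hochberg at 0.05. The 4 groups shared a model, litters were compared in a model of group by litter, and HOM and HET2 were compared with litter as covariate. The text of the study does not name its test. The fits were also run on simulated embryos that had no litter effect and larger changes than most reported here. That run does not bear on litter differences or on smaller changes.

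The genes named were the nucleoplasmin, box C/D, box H/ACA and RNA polymerase I genes, every gene past the threshold, the 3 highest and 3 lowest per length in WT, and the highest of each other role. Genes named for an unadjusted p, or for an unusual value, were chosen after their values were seen. The genes and lists were chosen with earlier results of these data known. Alternatives covered floors, pseudocounts, filters, scaling, depth, voom on recovered reads, weights, litter and left-out litters or embryos. The model with both genotypes of the cKO-x-HET cross, the fits without the shallowest HET1 embryo, and those without single HOM or WT embryos were added after seeing the data. RPKM used the union of annotated exons. Figures were drawn with matplotlib 3.10.9.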

Additional observations from a re-analysis of the deposited data

Results flagged for a closer look

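Of 84 sets of values of 4 to 10 embryos of a group, 3 held an embryo far from the others by Dixon's ratio, and chance gives about 1 in 20. Nop10 stood at 3.62 log2 RPM in HOM embryo 1 (30 reads), against 5.81 to 7.71 in the other 9 HOM embryos. Nol10 stood at 4.48 in HOM embryo 6 (15 reads), against 5.67 to 6.50 in the others. Nol7 stood at 7.01 in HET2 embryo 5, the single HET2 embryo of litter 2, against 6.01 to 6.27 in the other 4.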

How the results depend on the processing

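For HET1 against WT the number of genes past the threshold (5, with 6.51% of all genes) became 8 with values as deposited (13.4%). It was 9 with genes of a mean of at least 3 log2 RPM (15.1%) or with weights for single embryos (8.10%). Re-centred embryos gave 12 (7.90%) and equal depth gave 3 (4.62%). Depth as covariate, litter as a random effect or litter means as replicates gave 0, and called 0 of all genes too. These shares are of all genes tested in the same fit. Counts that follow have no such share here and are no result about the 41 genes. Leaving out a litter gave 0 to 18. With the mating number as a replicate block it was 4 for HET1, 0 for HOM and 0 for HET2. The numbers do not pair litters across crosses: gene-wise litter differences correlated at 0.45 (WT and HET1), -0.44 (WT and HOM) and -0.76 (HET1 and HOM). For HET2 against WT weights gave 1. For HOM against WT leaving out a litter gave 0 to 1. Between WT litters (0), 1 gene passed with the higher filter, re-centring or depth as covariate, 3 with voom, and 0 to 4 without single embryos. Between HET1 litters (22) re-centring gave 13, and 19 passed without the shallowest embryo. Between HOM litters (3), 1 passed with values as deposited, equal depth, depth as covariate or voom, 6 with weights, and 0 to 2 without single embryos. No called gene changed sign. Causes were not tested beyond the settings themselves.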
